A study of Mus musculus with 2 samples.

Results

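The circadian clock genes described here are 10 genes of the mouse molecular clock: Arntl, Clock, Npas2, Per2, Per3, Cry1, Cry2, Nr1d1, Dbp and Bhlhe40. They were taken by symbol as every probe set that the platform annotation assigns to exactly 1 of these genes, which gave 23 probe sets of the 34945 single-symbol probe sets and 10 of the 18193 genes on the array. The genes were chosen by symbol at a time when the signals and differences of both arrays were already known, so the values below are a description. Ovarian RNA of progesterone receptor (PR) knockout mice was compared with that of wild-type mice, with 1 array per genotype. All mice were C57BL/6 and 24 to 28 days old, and all received 5 IU of PMSG, a gonadotropin that drives follicle growth, and after 48 h 5 IU of hCG, the trigger of ovulation, with ovaries collected 11 h later. The knockout allele and the number of animals behind each RNA sample are not given in the sources used here. With single arrays no difference could be tested against the spread between animals, and no p-value is given.

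The clock is a transcriptional feedback loop present in most cells. BMAL1 (gene Arntl) pairs with CLOCK or with its relative NPAS2 and activates genes that carry E-boxes, among them the Per and Cry genes, whose proteins return to the nucleus and repress the pair. A second loop runs through the REV-ERB receptors (Nr1d1, Nr1d2), which repress Arntl, and the ROR receptors, which activate it, while DBP and NFIL3 act on D-boxes as activator and repressor. In rodent ovaries clock genes cycle in granulosa, theca and luteal cells. Clock transcripts change over the day, and the labels give the hours after hCG but not the time of day, so genotype and any difference in the hour of collection cannot be told apart.

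The promoters are shown because the direction in which a clock gene moves is usually described through the E-boxes, D-boxes and ROR elements near its start. RefSeq promoter windows (GRCm38.p6, 250 bases before to 50 after a start) matched 8 of the 10 genes, all but Per2 and Bhlhe40. The 250 bases upstream of Cry1 (chr10:85185055-85185304, minus strand), Nr1d1 (chr11:98775378-98775627, minus strand) and Dbp (chr7:45704997-45705246, plus strand) are printed 5′ to 3′, with the E-box CACGTG and the near E-boxes CACGTT and CACGTC, read on either strand, in capitals. The Arntl line is a 30-base stretch (chr7:113207530-113207559, plus strand) around the ROR element TAGGTCA, in capitals.
Cry1: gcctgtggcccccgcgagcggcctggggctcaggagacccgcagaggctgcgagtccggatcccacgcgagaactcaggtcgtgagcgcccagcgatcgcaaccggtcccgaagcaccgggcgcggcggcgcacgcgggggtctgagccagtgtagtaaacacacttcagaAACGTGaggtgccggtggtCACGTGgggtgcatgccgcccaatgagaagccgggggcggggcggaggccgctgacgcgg
Nr1d1: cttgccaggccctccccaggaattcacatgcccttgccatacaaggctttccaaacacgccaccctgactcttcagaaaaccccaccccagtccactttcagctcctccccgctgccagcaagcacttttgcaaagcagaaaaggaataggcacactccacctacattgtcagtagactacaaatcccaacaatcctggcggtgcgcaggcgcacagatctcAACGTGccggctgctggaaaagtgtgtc
Dbp: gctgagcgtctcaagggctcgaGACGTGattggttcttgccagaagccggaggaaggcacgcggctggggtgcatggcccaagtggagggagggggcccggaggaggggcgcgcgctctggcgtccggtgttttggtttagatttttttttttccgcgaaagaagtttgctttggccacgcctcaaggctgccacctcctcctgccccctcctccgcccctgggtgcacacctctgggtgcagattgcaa
Arntl: aaggcagaaagTAGGTCAgggacggaggtg

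Among the 8 genes with a window, Cry1 was the one with a canonical E-box, which began 60 bases upstream of the start; 8.09% of the 27025 genes in the table had this motif. The near E-box CACGTT was found in 3 of the 8 genes, Cry1 (79 bases upstream), Cry2 (166) and Nr1d1 (28), against 5.44% of all genes. The near E-box CACGTC was found in Dbp, 228 bases upstream, against 7.15% of all genes. Per3 held 2 copies of the D-box TTATGTAA, 205 and 158 bases upstream, a motif in 1.11% of all genes. In Arntl the ROR element began at base 31 after the start of one of its windows, and 2.97% of all genes held TAGGTCA. The other D-box, TTATGCAA (0.888% of all genes), and the other ROR element, TGGGTCA (4.57%), were in 0 of the 8. The cAMP element TGACGTCA (2.03% of all genes) and the palindromic progesterone or glucocorticoid response element (0.537%) were likewise in 0 of the 8. All motifs were read on both strands, those listed do not overlap each other, and a match or its absence describes these letters in this window.

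The array values are linear MAS5 signals, scaled by the authors to the same trimmed mean on both arrays. A probe set counted as measured when it reached the floor, the array's median signal, on at least 1 array; the floor was 37.95 on the PR knockout and 36.2 on the wild-type array. Each probe set has its own binding behaviour, so signals are compared between arrays for the same probe set and not between probe sets. The marker sums given further below add signals of different probe sets, so the brightest weigh most in them. Where several probe sets of a gene reached both floors, their differences had a within-gene SD of 0.25 on the log2 scale (4771 genes). This is the one spread these arrays give, and it leaves out the spread between animals. Pgr itself, the gene of the receptor, had 3 probe sets. One was close to the floors, at 42.8 in the PR knockout and 36.5 in the wild type, and the other two were under the floor on both arrays, so the arrays give no check of the genotype labels.

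Every one of the 10 genes had at least 1 measured probe set, and 15 of the 23 probe sets were measured. Of these, 13 reached the floor on both arrays and 2 on the wild-type array alone. In the PR knockout ovary 9 of the 15 gave lower and 6 higher signal, against 8611 lower and 11655 higher over all measured probe sets. At least 2-fold lower were 2 of the 15 (Bhlhe40 and 1 probe set of Per2), against 1.67% of all 20267 measured probe sets. At least 2-fold higher was 1 of the 15 (1 probe set of Dbp), against 1.06%. The median log2 difference, PR knockout minus wild type, was -0.07 over the 15 probe sets and 0.05 over all measured probe sets, whose quartiles were -0.15 and 0.27. Past 1.5-fold lay the repressor genes Per2, Cry1 and Bhlhe40 on the lower side and Nr1d1 and Dbp on the higher side. The repressor gene Cry2 (1.27-fold lower) fell short of that, with a difference like that of Arntl 1425099_a_at (1.29-fold lower). All 7 measured probe sets of the activator genes Arntl, Clock and Npas2 were under 1.5-fold apart. So were most probe sets on the array, since 1.5-fold was reached downward by 4.98% and upward by 6.63% of all measured probe sets. Both probe sets that reached the floor on the wild-type array alone, of Per2 and Per3, are among the 9, and that of Per3 lay too close to the floor to be given a direction. In whole ovary RNA, fewer cells of a type and less RNA per cell cannot be told apart.

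**Figure D1:**
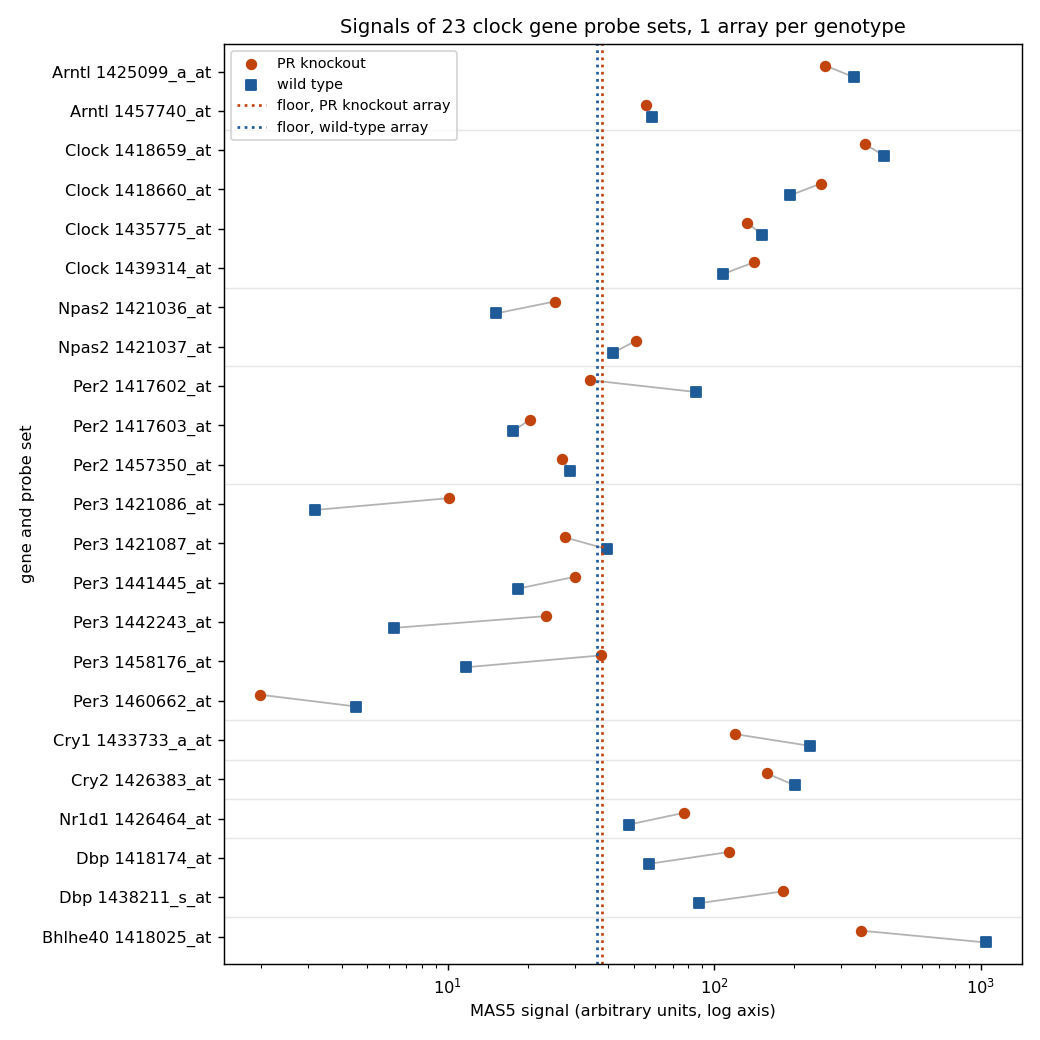
Signals of the 23 probe sets (rows) on a log axis, PR knockout as circles above wild type as squares, with each array's floor dotted. The PR knockout signal of Bhlhe40 (356) lies left of its wild-type signal (1048), both Dbp probe sets lie further right in the PR knockout, and most Per3 signals lie left of the floors.

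Among the activators, Arntl, which encodes BMAL1, the obligate partner of the activating pair, was read by 2 probe sets. Probe set 1425099_a_at gave a signal of 261 in the PR knockout and 336 in the wild type, 1.29-fold lower in the PR knockout. Probe set 1457740_at gave 55.6 in the PR knockout and 58.6 in the wild type, 1.05-fold lower, so both gave slightly lower signal. Their log2 differences were 0.29 apart, and 35.8% of the 2835 genes with 2 such probe sets had a gap as wide or wider.

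Clock, the histone acetyltransferase partner of BMAL1, had 4 probe sets above the floor on both arrays, and they split evenly in direction. Of the 459 genes with 4 such probe sets, 58.0% had both signs among them. Probe set 1418659_at gave 369 in the PR knockout and 435 in the wild type, a log2 difference of -0.24. Its neighbour 1418660_at, designed from the same source sequence in the platform annotation, gave 251 in the PR knockout and 193 in the wild type, a log2 difference of 0.38. These 2 probe sets therefore pointed in opposite directions. Probe set 1435775_at gave 133 in the PR knockout and 151 in the wild type (-0.19 on the log2 scale), and 1439314_at gave 141 in the PR knockout and 108 in the wild type (0.39). The range of 0.63 between the highest and lowest of the 4 was reached or passed by 22.2% of these 459 genes, whose median range was 0.44. A single Clock probe set would thus give either sign, and no direction can be given for the gene.

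Npas2, which can stand in for CLOCK, was dim. Probe set 1421037_at gave 50.8 in the PR knockout and 41.7 in the wild type, 1.22-fold higher in the PR knockout but close to the floors. Probe set 1421036_at was under the floor on both arrays, at 25.2 in the PR knockout and 15.2 in the wild type. In the dimmest of 10 bins of mean signal, which holds the measured Npas2 probe set, 23.6% of probe sets had a difference as high or higher.

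Among the repressors, Bhlhe40 was at least 2-fold lower in the PR knockout with both signals above the floor. It encodes DEC1, a basic helix-loop-helix factor that binds E-boxes, represses CLOCK and BMAL1 driven transcription, and also responds to hypoxia and hormones. Its 1 probe set, 1418025_at, gave 356 in the PR knockout and 1048 in the wild type. The log2 difference was -1.56, or 2.94-fold lower in the PR knockout. Both signals were well above the floor, at 9.38 times the floor in the PR knockout and 28.9 times in the wild type. Of all measured probe sets, 0.558% had a difference as low or lower, and in the same bin of mean signal 0.691% did.

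Cry1, whose protein is a potent repressor of CLOCK and BMAL1 and whose promoter is printed above, was read by 1 probe set, 1433733_a_at, with 119 in the PR knockout and 229 in the wild type. It was 1.91-fold lower in the PR knockout (-0.94 on the log2 scale), just short of 2-fold, and 1.91% of all measured probe sets were as low or lower. Its paralogue Cry2 was read by 1426383_at, with 157 in the PR knockout and 200 in the wild type. That is 1.27-fold lower (-0.35), a difference that 11.4% of all measured probe sets reached or passed downward. Both cryptochrome genes pointed the same way, and whether they differ from each other was not tested.

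The period genes were dim, and 1 probe set of each reached a floor. Per2, whose protein forms the repressor complex with the cryptochromes, was measured by 1 of 3 probe sets. Probe set 1417602_at gave 34.2 in the PR knockout, under the floor, and 85.1 in the wild type, at least 2.24-fold lower in the PR knockout. Probe set 1417603_at, designed from the same source sequence, was under the floor on both arrays, at 20.4 in the PR knockout and 17.5 in the wild type. The third, 1457350_at, was also under both floors, at 26.9 in the PR knockout and 28.6 in the wild type. The lower Per2 signal in the PR knockout thus rests on 1 probe set, which was 2.35 times the floor in the wild type.

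Per3, a period gene that is largely dispensable for rhythms in mice, was at or under the floor in nearly all of its 6 probe sets. Probe set 1421087_at alone reached a floor, with 27.6 in the PR knockout and 39.7 in the wild type, too close to the floor to give a fold. The other 5 ran from 1.98 to 37.5 in the PR knockout and from 3.18 to 18.4 in the wild type. Signals under the floor have no usable order, so no direction is given for Per3.

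Nr1d1 and Dbp, which are direct E-box targets of the activating pair, were higher in the PR knockout. Nr1d1 encodes REV-ERBα, a heme-binding nuclear receptor that represses Arntl. Its probe set 1426464_at gave 77.3 in the PR knockout and 48.0 in the wild type, 1.61-fold higher (0.69 on the log2 scale). The wild-type signal was 1.32 times the floor, and 13.4% of probe sets in the same bin of mean signal were as high or higher, against 4.15% of all measured probe sets.

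Dbp, a PAR bZIP activator that drives D-box genes of metabolism, was read by 2 probe sets that gave nearly the same difference. Probe set 1418174_at gave 113 in the PR knockout and 56.9 in the wild type, 1.99-fold higher. Probe set 1438211_s_at gave 181 in the PR knockout and 87.9 in the wild type, 2.06-fold higher. The 2 log2 differences, 0.99 and 1.04, were 0.05 apart, and 13.7% of genes with 2 such probe sets had a gap as narrow or narrower. Of all measured probe sets, 1.10% were as high as the first of these or higher and 0.849% as high as the second or higher. In the bin of mean signal of each, the shares were 2.86% for the first and 0.839% for the second. The wild-type signals were 1.57 times the floor for 1418174_at and 2.42 times for 1438211_s_at. The values fall on either side of 2-fold, so the count of probe sets called higher turns on a small step.

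**Figure D2:**
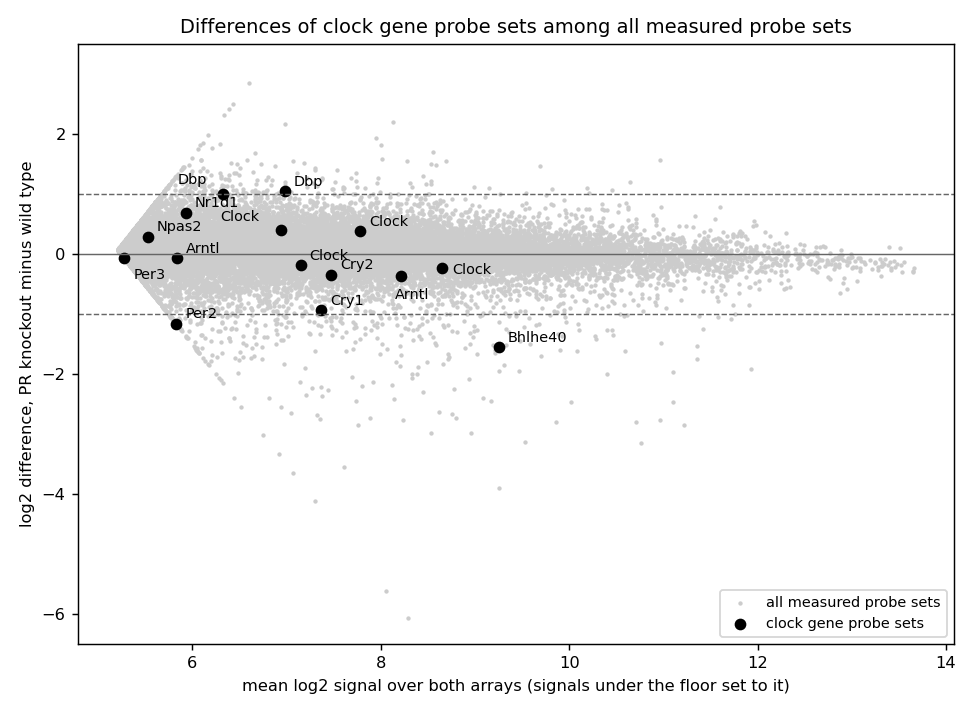
Log2 difference (PR knockout minus wild type) against mean log2 signal for all 20267 measured probe sets in grey and the 15 measured clock gene probe sets in black, with dashed lines at 2-fold. Bhlhe40 at -1.56 and Per2 at -1.16 lie below the lower line, Dbp lies at the upper line, and the 4 Clock probe sets lie on both sides of 0.

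Other genes of the clock were read from a list of 22, and single-symbol probe sets were found for 20. Of their 55 probe sets 39 were measured, 23 with lower and 16 with higher signal in the PR knockout, and the median log2 difference was -0.12. Rora alone gave 8 of the 39, most of them lower, so genes with many probe sets weigh more in these counts. With 1 value a gene, the median was 0.03 by the mean over its probe sets and -0.16 by its brightest probe set. Over all measured probe sets 8611 were lower and 11655 higher. At least 2-fold lower was 1 of the 39, against 1.67% of all measured probe sets, and at least 2-fold higher 0, against 1.06%, so these counts are near the background. At 1.5-fold, 5 were lower and 1 higher, against 4.98% and 6.63% of all measured probe sets.

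The D-box repressor gene Nfil3 gave 237 in the PR knockout and 749 in the wild type, 3.16-fold lower, opposite in direction to the activator gene Dbp. Per1, a period gene that cAMP signalling induces directly, gave 112 in the PR knockout and 194 in the wild type, 1.73-fold lower. Per1 thus pointed the same way as the measured Per2 probe set. Nr1d2, which encodes REV-ERBβ, gave 654 in the PR knockout and 347 in the wild type by 1416958_at, 1.89-fold higher, as Nr1d1 was. Its other probe set was under the floor in the wild type, at 12.9, and at 39.1 in the PR knockout. Usp2, an output gene for a deubiquitinating enzyme, was 1.63-fold and 1.77-fold lower in the PR knockout by its 2 probe sets. Their signals were 48.8 and 72.3 in the PR knockout, against 79.5 and 128 in the wild type in the same order. The PR knockout signals were 1.29 and 1.91 times the floor. With the 70th-percentile floor 1417169_at gave -0.01 on the log2 scale and 1417168_a_at was not measured. Noct, which encodes the rhythmic phosphatase nocturnin, gave 251 in the PR knockout and 391 in the wild type, 1.55-fold lower. The remaining 33 measured probe sets of the list were under 1.5-fold apart. In the RefSeq windows, 17 of these 22 genes were matched and 4 of them held CACGTG (Per1, Tef, Ciart and Bhlhe41), against 8.09% of all genes. CACGTC was found in 3 of the 17 (Rora, Fbxw11 and Nampt), against 7.15%, and CACGTT in Rorb, against 5.44%. The D-box TTATGTAA was found in Timeless (1.11% of all genes) and TTATGCAA in Per1 (0.888%). The ROR element TAGGTCA was found in Nfil3 (2.97%) and the cAMP element in Hlf (2.03%).

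**Figure D3:**
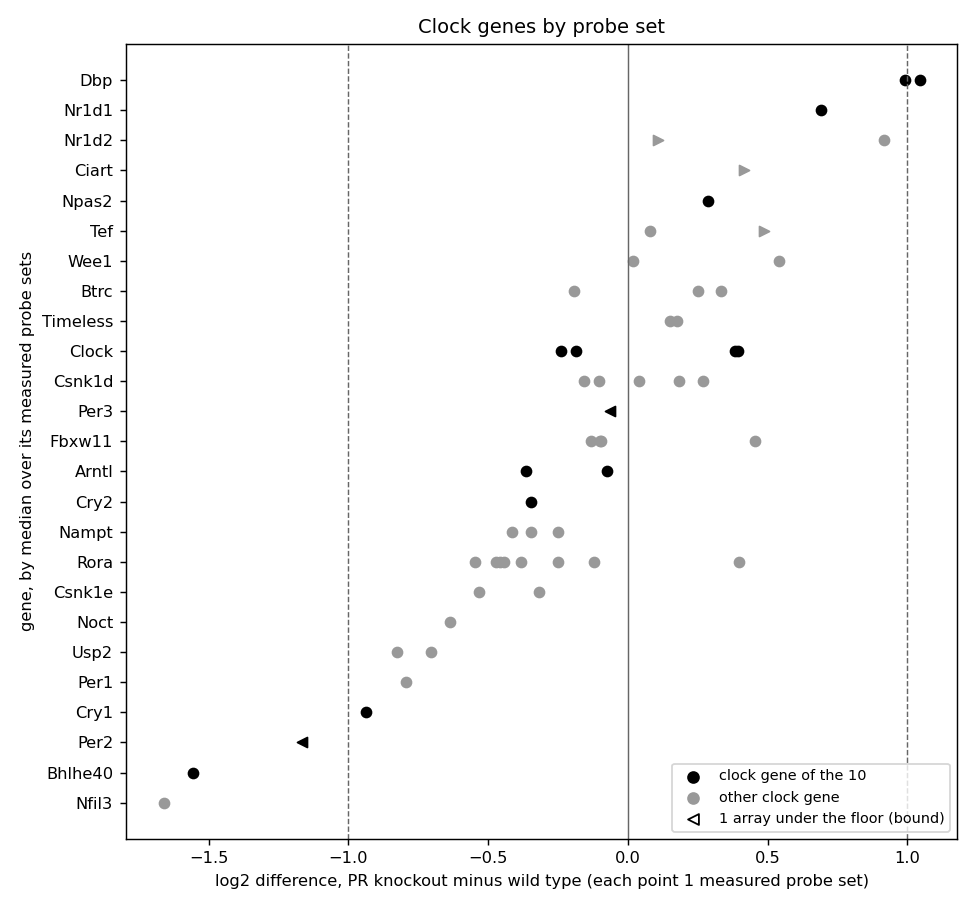
Log2 difference (PR knockout minus wild type) of each measured probe set, by gene, for the 10 clock genes (black) and the other clock genes (grey), with triangles for bounds and dashed lines at 2-fold. Dbp, Nr1d1 and Nr1d2 stand at the higher end, and Nfil3, Bhlhe40, Per2, Cry1, Per1 and Usp2 at the lower end.

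Markers of the ovary were present on both arrays. All 5 granulosa, 3 luteal or theca, 6 oocyte, 5 endothelial and 5 stromal markers with a probe set were measured, as were 4 of 5 leukocyte markers. The summed signal of the stromal markers was 7731 in the PR knockout and 5723 in the wild type, with a median log2 difference of 0.37. Of the stromal markers 4 of 5 were higher in the PR knockout, and Pdgfra was lower (-0.41). Tcf21 differed most of the 5, with 1373 in the PR knockout and 498 in the wild type (1.46). Granulosa markers summed to 10853 in the PR knockout and 10234 in the wild type (median 0.27). Here 4 of 5 were higher, and Inha, the brightest, was lower (-0.06). Luteal or theca markers summed to 16506 in the PR knockout and 19986 in the wild type (median -0.47), with 0 of 3 higher. Endothelial markers had a median of 0.31 (3 of 5 higher), oocyte markers 0.15 (6 of 6) and leukocyte markers -0.11 (1 of 4). Over all measured probe sets 8611 were lower and 11655 higher, with a median of 0.05 and quartiles of -0.15 and 0.27. The oocyte and leukocyte medians lay inside these quartiles. The marker differences stand beside the lower Bhlhe40 and Cry1 and the higher Dbp signals, and their part in those signals was not tested. The oviduct marker Ovgp1 and both fat markers were under the floor on each array, as were 2 of 3 skeletal muscle markers and the liver marker Alb. The other liver marker, Apoa1, gave 210 in the PR knockout and 505 in the wild type, a log2 difference of -1.26, and its relation to the lower Bhlhe40 and Cry1 signals was not tested.

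Across other ways of scaling and flooring the signals, Bhlhe40 kept its place while the calls of Dbp and Per2 did not hold everywhere. The log2 difference of Bhlhe40 ran from -1.61 to -1.48 over 7 other settings and stayed past 2-fold in each. The settings that change only the floor leave its value unchanged. The log2 difference of Dbp 1438211_s_at ran from 0.58 to 1.04 and passed 2-fold in 2 of the 7. Those are no floor and both arrays above the floor, which leave its value unchanged because both its signals were above the floor. Per2 1417602_at ran from -1.31 to -0.82 in the 5 settings that measured it. Cry1 ran from -1.03 to -0.78 and passed 2-fold in 1 of the 7.

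**Figure D4:**
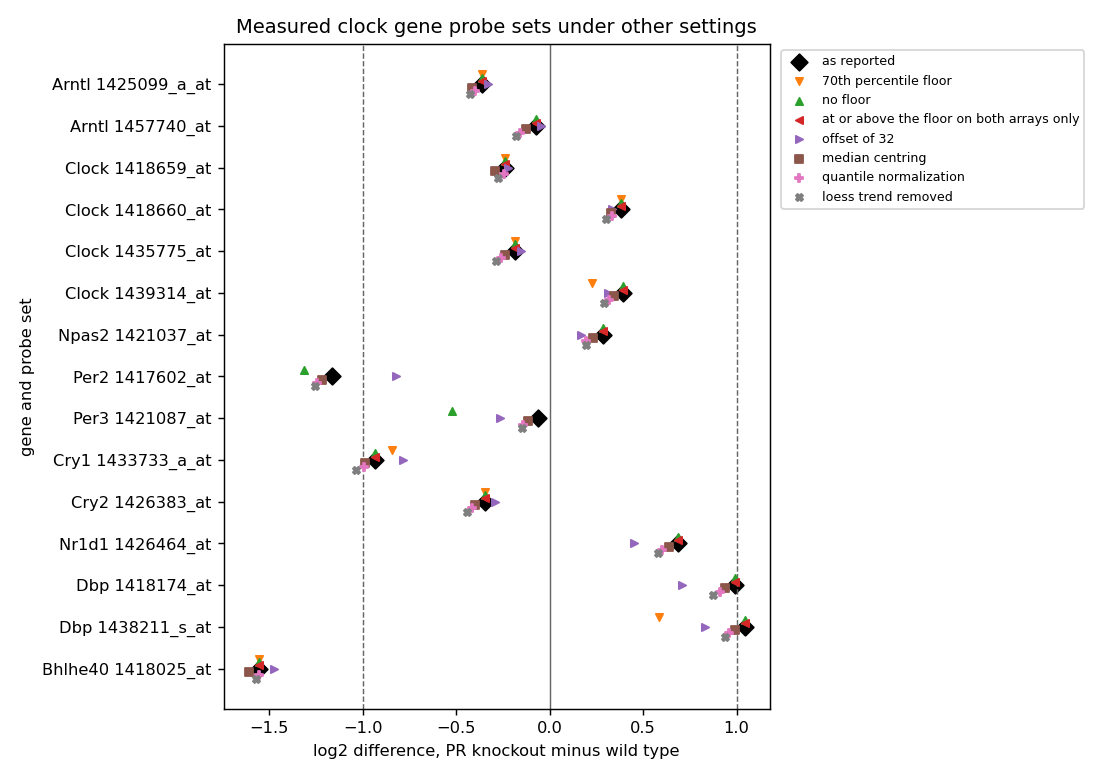
Log2 difference (PR knockout minus wild type) of the 15 measured probe sets as reported (black diamonds) and under 7 other settings (small coloured marks), with dashed lines at 2-fold. No probe set crosses 0, which several of the settings could not have made a probe set do. Bhlhe40 stays between -1.61 and -1.48, and the Dbp marks lie mostly just short of 2-fold.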

How the data were processed

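The deposited linear intensity values were made by the authors with MAS5 and Affymetrix Expression Console version 1 per the submitters' processing notes, from labelled RNA primed at the 3′ end per the labels' protocols (100 ng of total RNA). The mean after trimming 2% at each end was 150.001 on both arrays. The 64 control probe sets were set aside. Gene symbols came from the platform annotation of 2016, and 932 probe sets with several symbols and 9160 with none were left out. All 10 members matched RefSeq by gene ID. Signals under the floor (each array's median) were set to it before log2, so such a fold is a lower bound. No test was possible with 1 array per genotype, and the number of arrays limits the precision. Named genes are all members and the other clock genes with a measured probe set at least 1.5-fold apart. The members and lists were chosen with earlier results of these data known. Alternatives were a 70th-percentile floor, no floor, both arrays above the floor, an offset of 32, median centring, quantile normalization, loess (span 0.3), probe-set type, 1 value a gene and a 1.5-fold threshold. The calculation was tested on simulated data (Python 3.11.15, pandas 2.3.3, statsmodels 0.14.6).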

Additional observations from a re-analysis of the deposited data

How the results depend on the processing

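Of 97 values of the 15 measured probe sets under 7 other settings, 0 changed sign, 93 moved by less than the within-gene SD and 4 by more. Removing the floor, or requiring it on both arrays, cannot alter a probe set above both floors. The 70th-percentile floor likewise leaves bright probe sets unchanged, so part of the 93 could not move. An equal offset on both arrays cannot reverse a sign. Median centring lowered every difference by the same small step, so it could not turn a negative one. The 0 sign changes were therefore in part fixed in advance. The count of clock probe sets at least 2-fold lower in the PR knockout, 2 as reported, was 1 with the 70th-percentile floor, 1 with both arrays required at the floor and 1 with the offset, since the Per2 probe set dropped out or fell short. It was 3 without the loess trend, where Cry1 joined. The count at least 2-fold higher, 1 as reported, was 0 with the 70th-percentile floor, 0 with the offset, 0 after median centring, 0 after quantile normalization, 0 without the loess trend and 0 once probe sets of the types that may hit more than 1 transcript are dropped, where Dbp 1438211_s_at is left out. It was 3 at a 1.5-fold threshold, which adds Nr1d1 and the other Dbp probe set, against 6.63% of all measured probe sets. At that threshold 3 were also lower (Bhlhe40, Per2 and Cry1), against 4.98%. The median log2 difference of the clock probe sets stayed between -0.29 and -0.07, while that of the other clock genes turned to 0.03 with the mean over the probe sets of a gene, against -0.12 as reported; the cause was not tested. Over all measured probe sets, 339 were at least 2-fold lower and 214 higher as reported, against 402 lower and 145 higher without the loess trend. No paired analysis was possible because each genotype has 1 array. Signals near the floor limit Npas2, Per2, Per3 and Usp2 and, in the wild type, Nr1d1 and Dbp 1418174_at.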
